A study of Mus musculus with 96 samples.

Results

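C10 cells treated with RO-3306 did not carry mitotic transcripts at 1 level. Of 48 single-cell libraries from treated cells, 37 were kept. A kept library had a total of 50000 counts or more, and 1000 genes or more in it had a count of at least 1. Each kept cell was scored by the summed level of 10 mitotic transcripts, Ccnb1, Ccnb2, Cdc20, Plk1, Aurka, Cenpf, Top2a, Tpx2, Hmmr and Ube2c, in CPM, the counts of a gene for each 1000000 counts of the cell. The 12 cells with the highest sums (high cells) were compared with the 12 lowest (low cells), and the 13 cells between them entered neither group. The series holds 96 libraries, 48 of them untreated controls, each made from 1 sorted cell by SMART-seq, a full-length cDNA method without molecular identifiers. C10 is a mouse lung line whose labels call it alveolar type II epithelial, and the treated cells had 10 nM RO-3306 for 36 h, while the control cells had none. RO-3306 inhibits CDK1, the main mitotic kinase. No culture is named in the labels, so the cells of a group count as 1 sample and no p-value is given anywhere.

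CDK1 bound to cyclin B drives entry into mitosis. Its cyclins, the mitotic kinases and the parts of the spindle and kinetochore are transcribed together late in the cell cycle, by the complex of B-Myb and MuvB with FOXM1 acting on the promoter element known as CHR (cell cycle genes homology region) and by NF-Y acting on CCAAT boxes. Late in mitosis, the anaphase-promoting complex and its E2 enzyme Ube2c remove many of the proteins again. Cells in G2 phase and mitosis hold these transcripts, and cells in G1 phase hold few of them.

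The promoters of 3 score genes (Ube2c, Cdc20 and Top2a), whose levels chose the cells, and of Kpna2 and Cenpa, which entered no score, are shown as examples of how the letters of these elements lie before the start. Each sequence is the 120 bases before the start, 5′ to 3′ on the gene's strand, from RefSeq on GRCm38.p6. Capitals mark TTTGAA (the only form of the CHR that was searched for) and CCAAT on either strand. TTCAAA and ATTGG are the same letters read on the other strand. The motifs do not overlap one another in these 5 sequences.
Ube2c (chr2:164769809-164769928, plus strand): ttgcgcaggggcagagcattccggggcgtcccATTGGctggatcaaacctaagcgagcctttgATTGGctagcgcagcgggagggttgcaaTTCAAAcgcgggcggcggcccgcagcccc
Cdc20 (chr4:118437344-118437463, minus strand): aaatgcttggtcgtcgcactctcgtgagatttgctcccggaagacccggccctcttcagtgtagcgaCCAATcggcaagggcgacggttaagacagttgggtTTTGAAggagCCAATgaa
Top2a (chr11:99024190-99024309, minus strand): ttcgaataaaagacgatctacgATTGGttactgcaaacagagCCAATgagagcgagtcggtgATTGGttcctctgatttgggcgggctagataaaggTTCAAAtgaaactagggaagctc
Kpna2 (chr11:106999526-106999645, minus strand): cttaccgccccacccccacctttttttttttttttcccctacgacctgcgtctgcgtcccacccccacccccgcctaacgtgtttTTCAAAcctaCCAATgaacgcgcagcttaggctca
Cenpa (chr5:30666766-30666885, plus strand): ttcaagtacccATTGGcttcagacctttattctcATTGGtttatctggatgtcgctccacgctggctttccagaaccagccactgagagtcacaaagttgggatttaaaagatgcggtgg

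Among the 10 score genes, 9 had a promoter in the table, and TTTGAA lay in the 250 bases before the start of 4 of the 9 (44.4%), against 18.3% of the 27025 genes with any promoter there. CCAAT lay in all 9, against 37.5% of all genes, but also in 12 of 12 genes of cholesterol synthesis and in 22 of 31 S phase genes with a promoter (71.0%). For the other G2/M genes, 40 of 46 had a promoter, of which 16 held TTTGAA (40%) and 29 held CCAAT (72.5%). The genes at least 2-fold higher in the high cells held TTTGAA in 14.1% and the genes at least 2-fold lower in 12.6%, near the 13.2% of all measured genes with a promoter. For CCAAT these shares were 43.3%, 38.9% and 40.7%. These are matches of letters in a window, not sites, and Birc5 held neither motif.

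The sum that chose the cells ran from 3336 to 6585 CPM in the high cells and from 5.82 to 1866 CPM in the low cells. The cells next to each cut were B10 with 3278 CPM below the high cells and C5 with 1869 CPM above the low cells. Of the low cells, 5 (C7, A12, B3, B1 and A11) held 5.82 to 96.2 CPM, and the other 7 held 483 to 1866 CPM. These values set the groups and support nothing further.

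**Figure D1:**
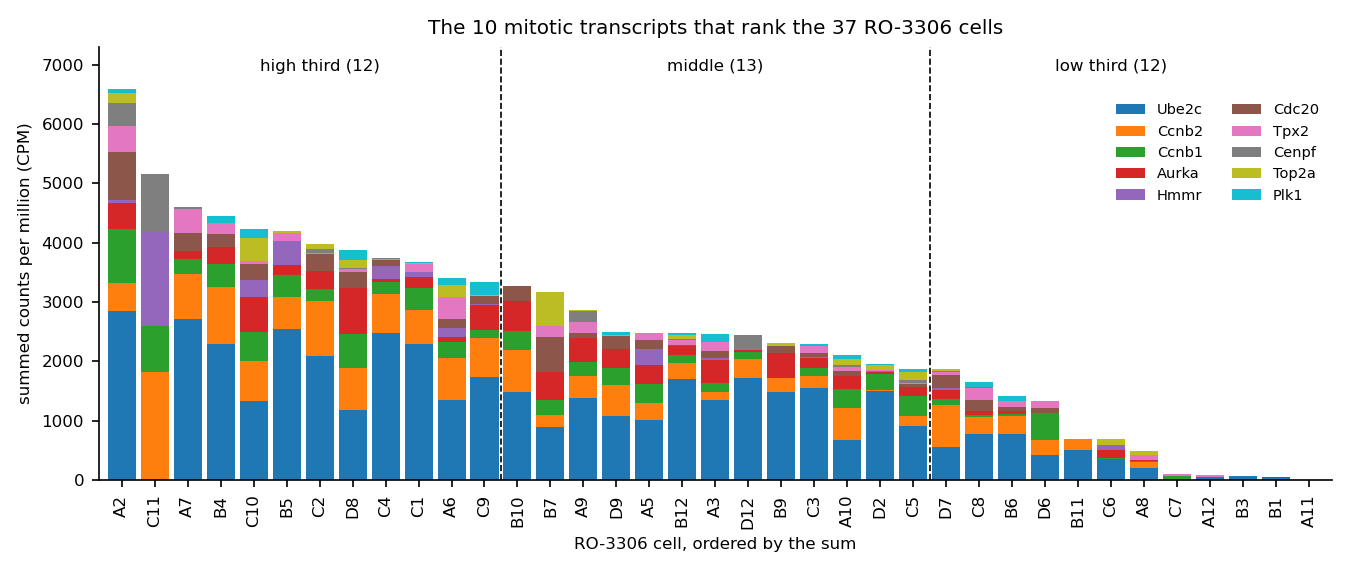
Each bar is 1 of the 37 kept RO-3306 cells, ordered by the summed CPM of the 10 score genes, with the genes stacked in colours; dashed lines part the 12 high, 13 middle and 12 low cells. Ube2c fills most of many bars, and the cell C11 holds none of it.

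Ube2c, which supplies ubiquitin to the anaphase-promoting complex, had the largest part of the sum, 44.6% of the mean in the high cells and 44.1% in the low cells. It ran from 0 through a median of 2193 to 2850 CPM in the high cells and from 0 through 277 to 776 CPM in the low cells. The only high cell without it was C11. Ccnb1 and Ccnb2, the B-type cyclins, had medians of 378 and 690 CPM in the high cells and 12.5 and 56.9 CPM in the low cells, and both had a count in 12 of 12 high cells. The kinase Aurka had medians of 233 and 8.23 CPM, and Cdc20, which activates the anaphase-promoting complex, 177 and 0.748 CPM. Plk1 had a count in 8 high and 2 low cells, Hmmr in 8 and 2, and Top2a, which untangles DNA, in 9 and 4. Tpx2, an activator of Aurka at the spindle, had a count in 11 cells of each group, with medians of 95.2 and 30.5 CPM. Cenpf, a kinetochore protein, had a median of 3.77 CPM in the high cells and 0 CPM in the low cells.

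The 12 high cells did not share 1 make-up. A2, with the highest sum of 6585 CPM, had a count for each of the 10 score genes and also the highest sum of the other G2/M genes, 11455 CPM. C11 came next with 5151 CPM, from Ccnb2 (1823 CPM), Hmmr (1583 CPM), Cenpf (966 CPM) and Ccnb1 (780 CPM), with 0 CPM for the other 6. In A7, B4, B5, C2, C4 and C1, Ube2c alone held 2095 to 2715 CPM. C10, D8, A6 and C9 held less Ube2c, 1180 to 1733 CPM, and each of them had Plk1 between 122 and 211 CPM. Among the low cells, D7, C8, B6 and D6 held 1334 to 1866 CPM of the score and 6123 to 8878 CPM of the other G2/M genes, within the range of the high cells. D6 had 459 CPM of Ccnb1, above 8 of the 12 high cells. B11, C6 and A8 held 483 to 689 CPM, and in C7, A12, B3, B1 and A11 at most 6.78 CPM came from Ccnb2.

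The libraries of the 2 groups overlapped in every measure. Totals ran from 475882 to 4646751 counts in the high cells (median 2487120) and from 295005 to 4443647 in the low cells (median 1667200). At full depth the medians were 6031 and 6488 genes with a count. After thinning to 780000 reads, which left out 2 cells of each group, they were 5817 genes (SD 543 over 10 cells) and 6293 genes (SD 937 over 10 cells). Mitochondrial transcripts took a median of 3.85% of counts in the high cells and 5% in the low cells. The cells A11, B3 and C11, with under 4000 genes, stood apart: B3 had 56.0% mitochondrial counts, A11 18.1% with a mean mRNA length of 1989 nt against at most 1396 nt in the others, and C11 only 1961 genes. The high cells came from the title letters A to D as 3, 2, 6 and 1, and the low cells as 3, 4, 3 and 2, letters that the labels do not explain. No 2 kept libraries held identical values. Of 10 alveolar type II markers, 6 were at 0 in the high cells and 5 in the low cells, Sftpc among them. Of 10 epithelial markers, 8 were at 0 in the high cells and 7 in the low cells, Epcam among them in both. The macrophage and leukocyte markers summed to medians of 33 and 39.6 CPM, with 7 of 10 genes at 0 in each group, not all of them the same. The part of these measures in the differences below was not tested.

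**Figure D2:**
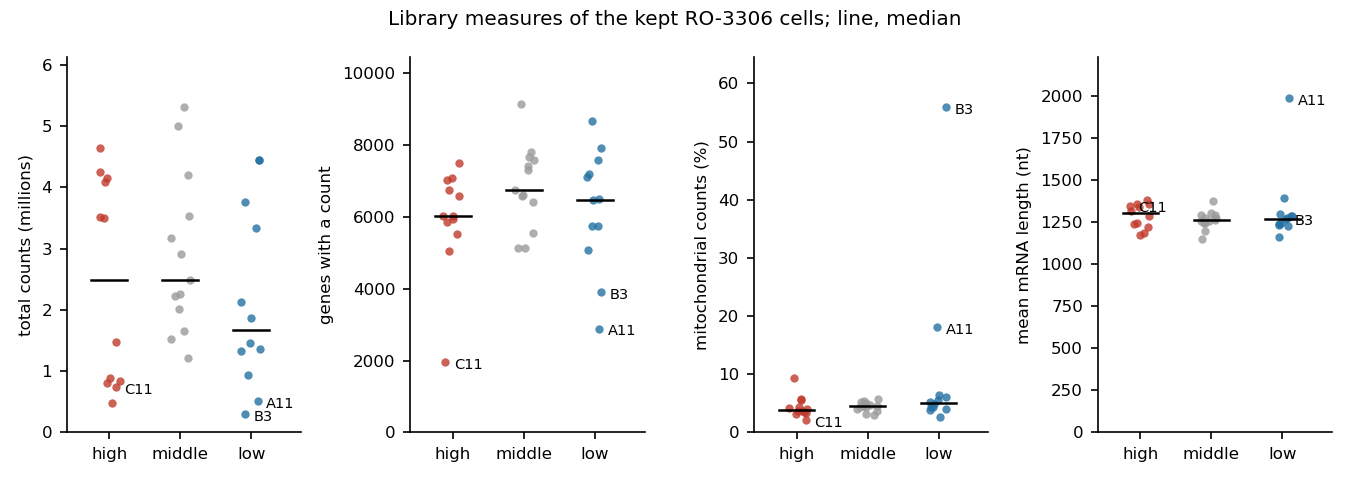
Total counts, genes with a count, mitochondrial percent and the mean mRNA length weighted by counts (geometric, nt) of each kept RO-3306 cell by group, with the median as a line. The groups overlap in all 4 measures, and A11, B3 and C11 are named.

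A gene was read as higher or lower where the ratio of the groups was at least 2-fold both in summed counts and in the mean of CPM over cells, with 1 CPM added to each side, where the level averaged over both groups reached 5 CPM. Of 8759 such genes, the score genes left out, 1155 were higher in the high cells (13.2%) and 1313 lower (15%). Since the groups were chosen on the transcripts of these same cells, the shares are a description and nothing is read from them. No gene of the 8759 had every high cell above every low cell, or every high cell below (0% each). Every gene named below thus overlapped between the groups. The log2 ratios below are, unless said otherwise, of the mean CPM over cells of each group with 1 CPM added to both means, which understates the change of low genes.

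The other genes of the G2/M programme are the usual list for calling cell cycle phases in single cells, without the score genes. Of 46 listed, 45 were measured, 12 were higher (Cdca2, Cenpe, G2e3, Nek2, Kif20b, Tacc3, Cenpa, Cks2, Ttk, Nuf2, Hjurp and Birc5) and 2 were lower (Ckap5 and Ncapd2). These are 26.7% and 4.44% of the measured list, against 13.2% and 15% over all genes. The number higher moved with the setting, as did the share over all genes: it was 20 of 45 with means over cells alone (18.3% of all genes), 24 of 45 with cells thinned to equal depth (16.8%), 24 of 45 with Ube2c left out of the score (17.2%) and 23 of 45 without set D (15.7%). With a minimum of 50 CPM it was 6 of 30 (5.13% of all genes). Thinning changed more than depth, since it left out A6 and C11 of the high cells and A11 and B3 of the low cells. With equal totals, summed counts and means over cells also give the same ratio. In the main comparison the median log2 ratio of the list was 0.94, against 0.06 over all genes measured. The 46 genes summed to between 3041 and 11455 CPM in the high cells (median 8801), 5193 and 10124 CPM in the middle cells (median 7040) and 165 and 8878 CPM in the low cells (median 4504). The lowest high cell was C11. Over the 37 cells this sum followed the score with a Spearman correlation of 0.66, a description, since both share each cell's library and total. The low cell A11 had almost no score but 7647 CPM of the other G2/M genes, and its level of Anln, the actin-binding protein anillin, was the highest of the 24 cells. Without A11, B3 and C11, 14 genes of the list were higher and 0 lower, and Ckap5 went from a log2 ratio of -2.82 to 1.13.

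**Figure D3:**
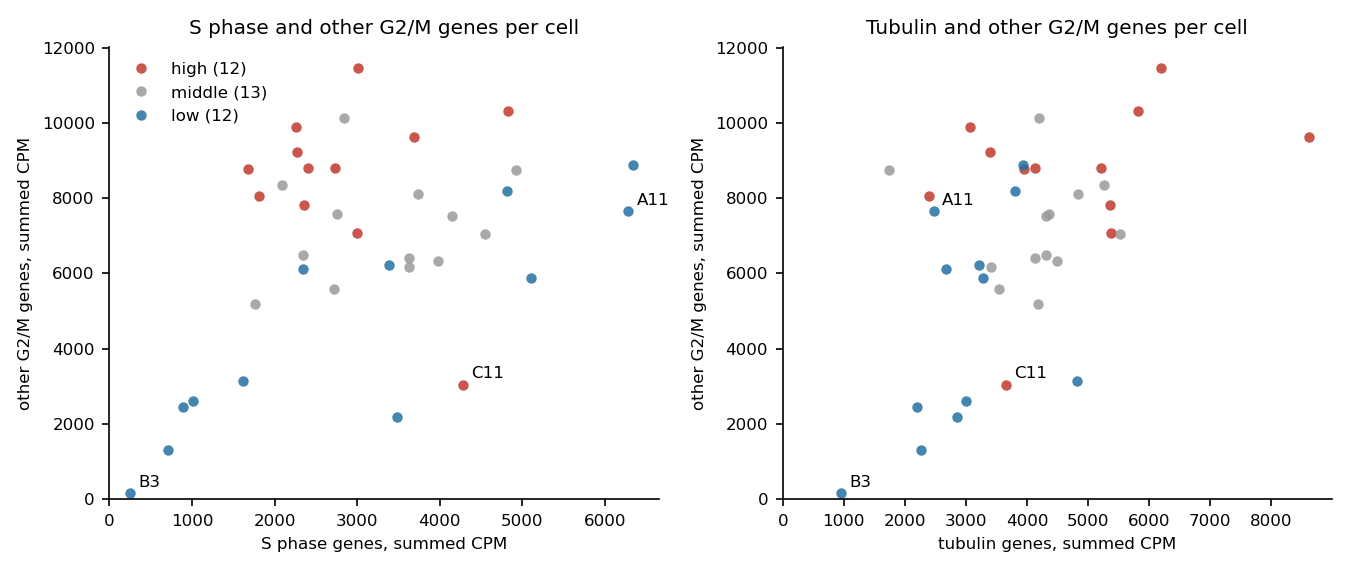
Each point is a kept RO-3306 cell, with the summed CPM of the 46 other G2/M genes against that of the S phase genes (left) and of the tubulin genes (right), coloured by group. The high cells lie between 3041 and 11455 CPM on the vertical axis and the low cells between 165 and 8878 CPM, and A11, B3 and C11 are named.

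Of 12 measured regulators of mitotic entry, 5 were higher (Cdc25b, Nek2, Cks2, Ccnf and Ccna2) and 1 lower (Pkmyt1, an inhibitory kinase of CDK1). These are 41.7% and 8.33% of the list, against 13.2% and 15% over all genes. Pkmyt1 rested on the low cell A11, at 926 CPM, and without A11, B3 and C11 no gene of the list was lower. Cdc25b, the phosphatase that activates CDK1 (GRCm39 chr2:131028356-131040431), had a median of 103 CPM and a highest of 1340 CPM in the high cells, with 0 CPM as median and 56.1 CPM as highest value in the low cells. The highest value, in C11, made up 49.0% of its mean, and with each score gene weighted equally its log2 ratio was -0.25. Ccna2, cyclin A, had medians of 18.6 and 2.13 CPM. Cdk1 itself had medians of 613 and 421 CPM and a log2 ratio of 0.91, below the 2-fold line. Ensa, an inhibitor of the phosphatase PP2A in mitosis, had a ratio of -0.11.

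Pttg1, securin, which holds separase inactive until anaphase, ran from 209 through 947 to 2025 CPM in the high cells and from 0 through 164 to 875 CPM in the low cells, a log2 ratio of 2.02. All 12 high cells lay above the low median. Birc5, survivin of the chromosomal passenger complex, ran from 372 through 941 to 1247 CPM and from 0 through 185 to 976 CPM (log2 ratio 1.46), on GRCm39 chr11:117740063-117746569. Sgo1, which protects centromeric cohesin, had medians of 114 and 3.69 CPM (log2 ratio 2.38). Cenpa, the histone H3 variant of centromeres, had medians of 574 and 70.3 CPM, and is named from the list of higher genes and not from the naming rule. In this complex Incenp was lower, with a count in 4 high and 6 low cells, and Aurkb and Cdca8 had log2 ratios of 0.96 and 0.22. Of 15 checkpoint and anaphase-promoting complex genes, 3 were higher (Pttg1, Ttk and Bub1b) and 2 lower (Mad1l1 and Cdc23), the last with a count in only 3 high and 5 low cells. These are 20% and 13.3% of the list, against 13.2% and 15% over all genes.

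Of 24 measured kinetochore genes, 7 were higher (29.2%, against 13.2% over all genes) and 0 lower (against 15%). Of the 7, Cenpe, Cenpa, Nuf2 and Hjurp were also counted among the other G2/M genes. Called genes of the mitotic entry, checkpoint, passenger complex and spindle lists are shared with that list too, so the lists are not independent. Cenpe, the kinetochore motor, had a count in 5 high cells, up to 345 CPM in A2, and in 1 low cell. At equal depth it was found in 4 of 10 high cells (40%, exact 95% interval 12.2% to 73.8%) and in 0 of 10 low cells (upper bound 30.8%), intervals that cover counting error only and overlap. Cenpe was named for its ratio in these same cells, so its detection adds no support. Nsl1 rested on C11, which made up 95.9% of its mean, and had a log2 ratio of -0.75 without that cell. Of 22 measured spindle genes and mitotic kinesins, 9 were higher (40.9%) and 1 lower (4.55%). Kpna2, an importin that binds spindle assembly factors, ran from 128 through 685 to 1176 CPM in the high cells and from 0 through 54.0 to 422 CPM in the low cells (log2 ratio 2.24). A count is fractional where a read was split among several sites, and that of Kpna2 was so in 88.9% of the cells with a count, so its level is uncertain. Spag5, a spindle protein, had a median of 0 CPM in the high cells and rested mainly on C1, with a log2 ratio of -0.15 without set C, and 59.7% of the span of Kif20a, a kinesin of the central spindle, is shared with another gene.

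**Figure D4:**
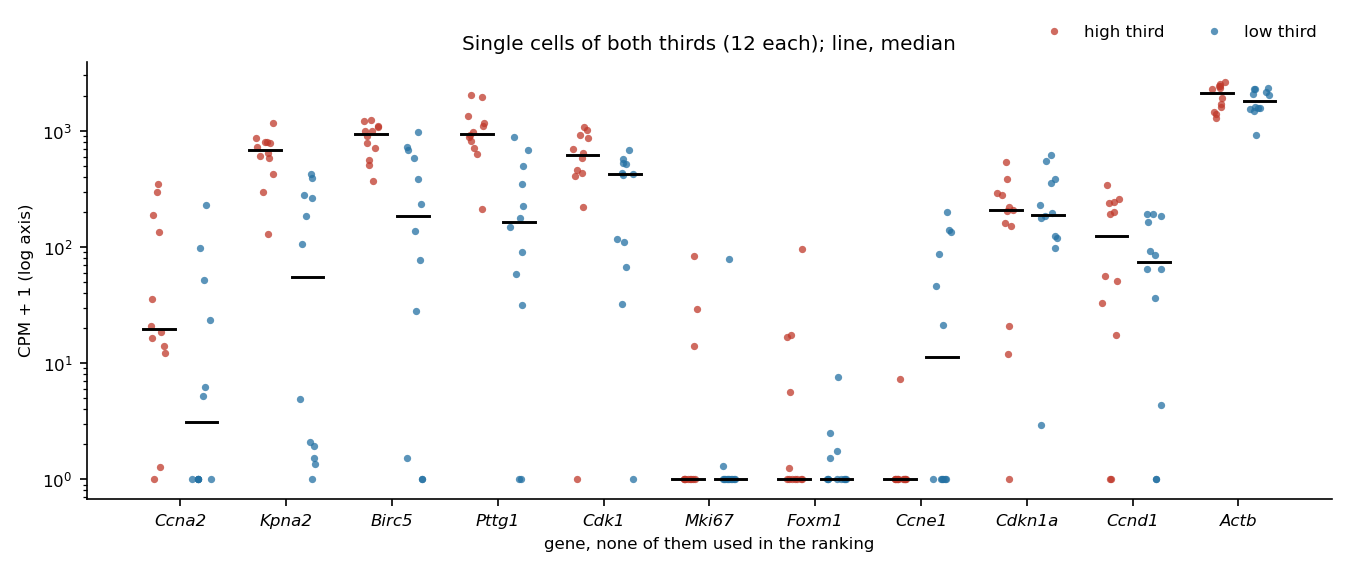
Each point is 1 cell of the high or the low group (12 each) and the lines are medians, on a log axis of CPM + 1. Pttg1, Birc5 and Kpna2 have high medians of 947, 941 and 685 CPM and low medians of 164, 185 and 54.0 CPM, and Actb overlaps almost fully.

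The regulators of this programme were low in both groups. Foxm1, the transcription factor of G2/M genes, had a mean of 11 CPM in the high cells and 0.780 CPM in the low cells, with a count in 5 and 4 cells. Lin9 and Lin52, subunits of MuvB, were also higher, with counts in 4 and 6 high cells. The highest values of both in the high cells were in C9, at 244 and 126 CPM. Low cells held them too, Lin9 up to 3.49 CPM in A8 and Lin52 up to 7.50 CPM in C6. E2f8 and Rb1 were lower, and Rb1, the retinoblastoma protein that restrains entry into S phase, had means of 1.19 against 20.9 CPM. Most of the low mean came from 1 cell in each case, B6 for Rb1 (200 CPM) and D6 for E2f8 (159 CPM). Mki67, the proliferation marker Ki-67, had means of 10.3 and 6.48 CPM, with a count in 3 high and 2 low cells.

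Of 40 measured S phase genes, 4 were higher (Cdca7, Pola1, Dtl and Gmnn) and 10 lower (Clspn, Brip1, Casp8ap2, Cdc6, E2f8, Chaf1b, Ung, Exo1, Rad51ap1 and Mcm6). These are 10% and 25% of the list, against 13.2% and 15% over all genes. Clspn, which links stalled forks to the checkpoint kinase Chek1, had a count in 1 high and 3 low cells, A11 holding 87.1% of its low mean. Brip1, a DNA helicase, also rested on A11, at 89.7% of its low mean. Cdca7, a target of E2F and Myc, had medians of 5.82 and 0.537 CPM, and Cdc45, a part of the replicative helicase, had a ratio of 2.05 with means over cells but 0.72 with summed counts. Summed over the list, the S phase genes had medians of 2566 and 2863 CPM and overlapped widely. Without the cell D6 the number of lower genes went from 10 to 6, and without C10 the number of higher ones from 4 to 2. With each score gene weighted equally on the log2 scale, 4 of 40 were lower (11.9% of all genes), and with Ube2c left out of the score 5 of 38 were (12.8%). Ccne1, cyclin E1, which starts DNA replication with CDK2, had a count in 1 high cell (A6, 6.30 CPM) and in 6 low cells, 20.4 to 200 CPM. Thinning left out A6, so the 0 of 10 high cells with Ccne1 at equal depth (exact upper bound 30.8%) was fixed by that choice. Among the low cells, 6 of 10 had it at equal depth (60%, 26.2% to 87.8%). The intervals overlap and cover counting error only, and Ccne1 was named for its ratio in these same cells. Cdkn2c, an inhibitor of CDK4 and CDK6, was also lower. Ccnd3 and Cdkn2d were not, with log2 ratios of 0.61 and 0.78, and Cdkn1a, p21, had medians of 206 and 189 CPM.

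Outside the cell cycle, of 11 measured genes of cholesterol synthesis, 7 were lower (Fdft1, Cyp51, Nsdhl, Srebf2, Fdps, Mvk and Idi1) and 1 higher (Sc5d). These are 63.6% and 9.09% of the list, against 15% and 13.2% over all genes. Fdft1, squalene synthase, had a count in 3 high and 10 low cells, and Cyp51 in 2 and 5. The levels were small, with means of 11.1 and 43 CPM for Fdft1. With each score gene weighted equally on the log2 scale, 0 of 11 were lower and 2 were higher, and with Ube2c left out of the score 2 of 10 were lower and 2 higher. The log2 ratio of the summed list was -0.63, 0.12, -1.003 and -0.72 in the title letters A to D, and over the 37 cells the sum had a Spearman correlation of -0.15 with the score, a description, since both share each cell's library. Of 9 measured tubulin genes, none crossed the 2-fold line in both measures, with a median log2 ratio of 1.19 by means over cells and 0.84 by summed counts. Tubb2a and Tubb6 had ratios of 1.34 and 1.21, and Tubg1, of the spindle pole, -0.49. Tubulin counts were often fractional, in 86.5% of cells for Tubb2a, so the single genes are uncertain, and Tuba1b was listed at 0 in every cell. The tubulin sum had medians of 4666 and 2933 CPM. Aldh3a1, an aldehyde dehydrogenase, had medians of 945 and 185 CPM and a log2 ratio of 1.74, but 0.95 by summed counts.

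**Figure D5:**
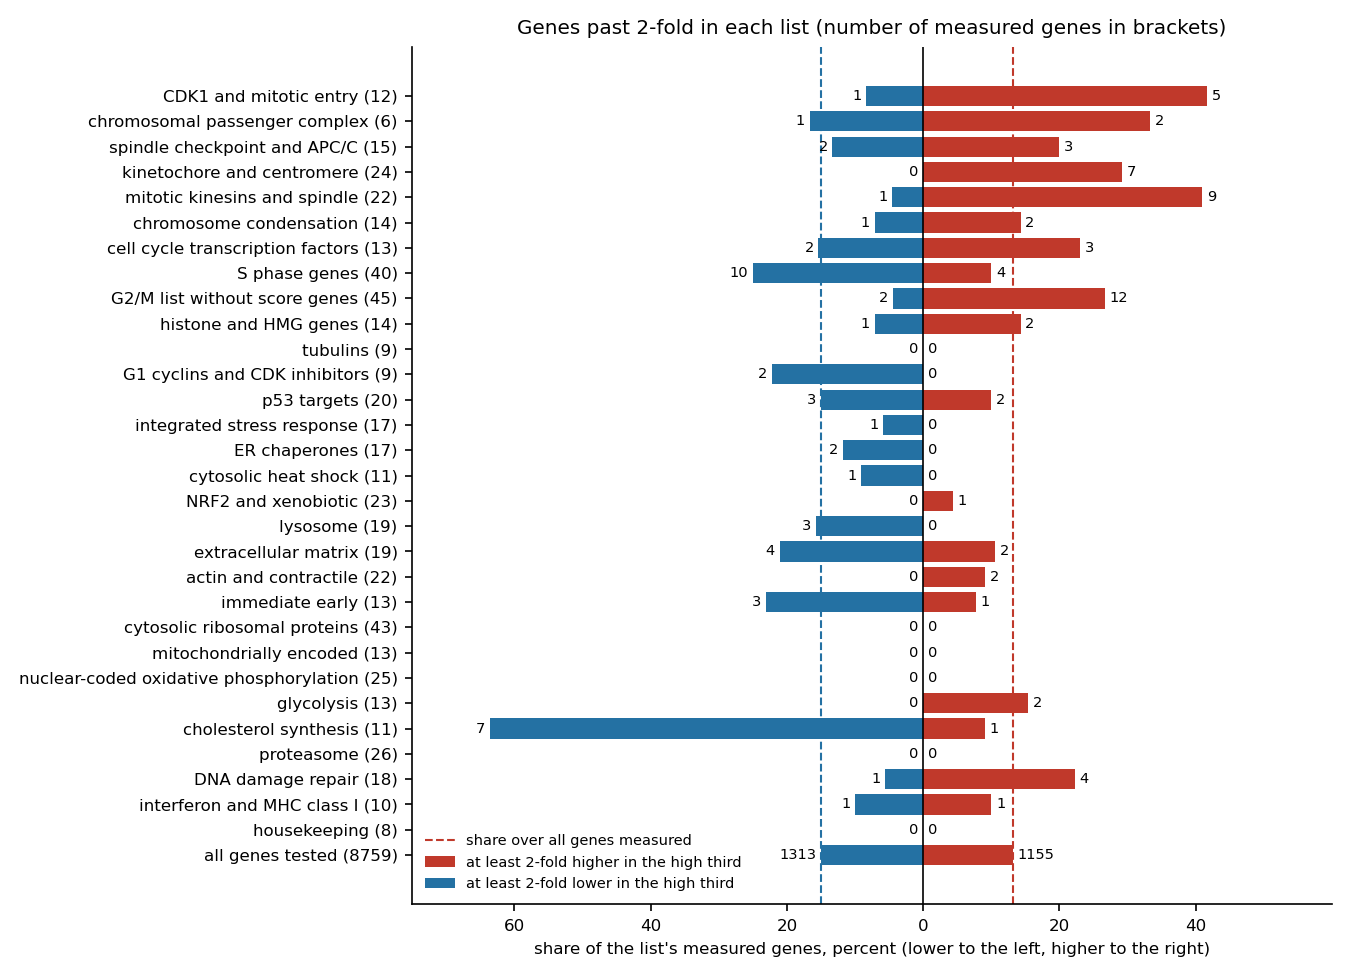
For each gene list with at least 6 measured genes, the share at least 2-fold higher (red, right) or lower (blue, left) in the high cells, with the number of genes at the end of each bar. Dashed lines mark 13.2% and 15%, the shares over all 8759 genes measured. The lists of mitotic entry, spindle, passenger complex and kinetochore reach furthest to the right, and cholesterol synthesis furthest to the left. Chromosome condensation, at 14.3% higher, lies near the dashed line, and the tubulins are at 0%. Some genes are in more than 1 list.

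No gene of the 43 measured ribosomal proteins, 25 nuclear-coded genes of oxidative phosphorylation, 26 proteasome genes or 8 housekeeping genes was past 2-fold in both measures. By means over cells alone 3 proteasome genes (Psmc3, Psmc5 and Psmd2) were higher. Actb and Gapdh had log2 ratios of 0.14 and 0.29. Of the 13 mitochondrially encoded genes, none was past 2-fold in both measures, with a median log2 ratio of -1.16 by means over cells and -0.17 by summed counts. The cell B3 made up 59.3% of the low mean of ND4, a subunit of respiratory complex I. Among 20 measured p53 targets 2 were higher (10%) and 3 lower (15%), near the 13.2% and 15% over all genes. With cells thinned to equal depth 1 of 22 was higher and 7 lower, and with each score gene weighted equally 5 of 21 were higher and 3 lower. Mdm2, the ligase for p53, had a ratio of -0.31. Of 17 stress response genes 1 was lower (Atf3, 5.88%), Ddit3 having a ratio of 0.27. Of 17 chaperones of the endoplasmic reticulum 2 were lower (Hyou1 and Dnajb9, 11.8%), and of 19 lysosomal genes 3 were lower (15.8%), against 15% over all genes. Of 19 matrix genes 2 were higher (10.5%) and 4 lower (21.1%). However, 6 were higher and 2 lower without A11, B3 and C11, and 5 were higher and 3 lower with cells thinned to equal depth. Thbs1 and Col1a1, matrix genes, had ratios of -0.61 and -0.16, and Cd68, a lysosomal protein, 0.51. Of 18 measured DNA repair genes 4 were higher (Fanci, Chek2, Chek1 and Xrcc6, 22.2%) and Rad54l was lower (5.56%). By summed counts alone 4 were higher and 5 lower (16.98% and 20.45% of all genes). With each score gene weighted equally 7 were higher and 1 lower (19.96% and 11.86% of all genes), and Fanci had a log2 ratio of -0.031.

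With a floor of 50 CPM on that average, 65 of 3391 genes (1.92%) stayed higher with each cell of the groups left out in turn and 45 (1.33%) stayed lower. The 12 highest that also had a count in at least 9 high cells were Cdc25b, Trip4, Nup88, Spopl, Tmed7, Gart, Zfr, Sema3a, Actr2, Sgo1, Hp1bp3 and Kpna2. Gart, an enzyme of purine synthesis, ran from 0 through 97.0 to 209 CPM in the high cells and from 0 through 5.75 to 33.8 CPM in the low cells, with no single cell above 19.8% of its mean. Trip4, a transcriptional coactivator, had medians of 18.5 and 0.460 CPM. Tmed7, a cargo protein of early secretion, had means of 155 and 14.9 CPM. Sema3a, a secreted guidance protein, had a count in 9 high and 4 low cells, 9 being the fewest high cells that the choice allowed. Actr2, of the Arp2/3 complex that branches actin, had medians of 87.9 and 3.56 CPM, and Hp1bp3, a chromatin protein, 123 and 38.1 CPM. C11 made up 71.9% of the mean of Nup88, a nucleoporin, 81.6% of that of Spopl, a ubiquitin ligase adaptor, and 55.6% of that of Zfr, an RNA-binding protein.

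The 12 lowest were Mapk14, Tsc22d2, Ttc23, Mindy3, Ptbp3, Zmpste24, Fam174a, Gpr141, Rcc2, Atp13a3, Ahnak and Knop1. Mapk14, the stress kinase p38 alpha, ran from 0 to 8.41 CPM in the high cells and from 0 through 1.34 to 343 CPM in the low cells, most of it in D6, C8, B6 and D7. Mindy3, a deubiquitinase, had medians of 0.241 and 61.0 CPM. Rcc2, which binds chromosomes and the spindle midzone, had medians of 7.42 and 86.9 CPM and ran from 16.9 to 243 CPM in the low cells. Ptbp3, a splicing regulator, and Zmpste24, the protease that matures lamin A, had a count in 5 high and 9 low cells each. A count in at least 9 low cells was required of these 12 genes, so that number was set by the choice. Tsc22d2 rested on A11, at 79.7% of its low mean, and Ahnak, a very large scaffold protein, had 35.7% from the same cell.

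The same rule in control cells gave other numbers, set here beside the treated ones without a test of the difference. Of 29 kept controls, the 9 with the highest score had 1993 to 5510 CPM and the 9 lowest 0 to 795 CPM. Of 8878 genes measured there 2423 were higher (27.3%) and 1524 lower (17.2%), and 2 genes, Pimreg and Cdkn2c, had every high cell above every low cell (0.0225%). They are named for this, after their values were seen. Pimreg had means of 246 and 0 CPM there, and Cdkn2c, lower in the high treated cells, had 187 and 30.1 CPM. Of the 46 other G2/M genes 34 were higher and none lower, and their median log2 ratio was 2.85. Of 27 measured spindle genes 25 were higher, and of 12 measured cholesterol genes 2 were higher and 2 lower. Ccne1 had means of 60.9 and 112 CPM in the high and low controls, and Kpna2 613 and 85.2 CPM. Group sizes, treatment and background differ from the treated comparison. The high controls came from the title letters A to D as 1, 6, 1 and 1, and the low controls from A, B and C as 5, 1 and 3. Totals of kept controls went down to 59979 counts, against 295005 in kept treated cells. The part of letters and totals in these numbers was not tested.

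The split by title letter gave the other G2/M genes a log2 ratio of summed means of 1.08 in A, 1.61 in B, 0.89 in C and 0.04 in D, where 1 high cell stood against 2 low ones. The S phase sum had -0.38, 0.86, 0.05 and -1.22, and so did not keep 1 direction. The tubulin sum had 0.63, 0.39, 0.80 and 0.43. The choice of cells bears on these values: with each score gene weighted equally on the log2 scale only 7 of 12 high cells and 9 of 12 low cells were the same, and without Ube2c 10 and 9 were. Under the equal weighting the log2 ratios of Cdc25b, Nup88, Spopl and Zfr went below 0, to -0.25, -1.35, -4.45 and -1.14, and those of Rb1, Cdc23, Cyp51, Mindy3, Ptbp3 and Gpr141 went above 0. Of the 164 genes named by rule and reported here, 28 changed sign under at least 1 of the alternatives tried.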

How the data were processed

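Each library is 1 sorted cell. Per the file headers, the authors counted reads with featureCounts 2.0.3 over whole gene spans of the GRCm39 RefSeq annotation, introns included, splitting a read placed at several sites into fractions. The deposited values are therefore expected counts, which were rounded for thinning and intervals. The submitters' processing notes also name STAR and FastQC, with no version, and trimming is not given in the sources used here. Without molecular identifiers PCR copies enter the counts, and intervals cover counting error only.

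CPM was computed over each cell's counts in Python 3.11.15 with numpy 2.4.6. Groups were compared by summed counts and by the mean of CPM over cells, with a pseudocount of 1 CPM and a minimum of 5 CPM averaged over the groups. Of 48 treated and 48 control libraries, 11 and 19 fell below the minimum total or gene number and were left out. Named genes are the 12 highest and 12 lowest with a mean of at least 50 CPM that kept 2-fold with each cell left out and had a count in at least 9 cells of the higher group, the score genes, the 2 highest and 2 lowest of each list and a set of fixed genes. Of all genes named by this rule, 1 is not reported here. The members and lists were chosen with earlier results of these data known. Alternatives used edgeR 4.0.16 and DESeq2 1.42.0 for scaling factors only, as no replicate test was possible. The calculation was tested on simulated data.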

Additional observations from a re-analysis of the deposited data

How the results depend on the processing

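The count of genes at least 2-fold higher in the high cells (1155) and lower (1313) stayed within 1.5 times under TMM and DESeq2 scaling, without each set of title letters and without the 3 cells with under 4000 genes, an alternative chosen after seeing the data, as was the score without Ube2c. A minimum of 50 CPM gave 174 higher and 118 lower genes, with 6 other G2/M genes higher, 1 S phase gene higher and 3 lower. A minimum of 1 CPM gave 2162 lower genes. A pseudocount of 10 CPM gave 604 higher and 683 lower genes and 2 S phase genes higher. With each score gene weighted equally on the log2 scale, 1752 genes were higher, 19 other G2/M genes were higher and 4 S phase genes were lower. Groups of 18 cells each gave 821 lower genes and 6 S phase genes lower, and groups of 9 cells gave 19 other G2/M genes higher. Means over cells alone gave 20 other G2/M genes higher, and cells thinned to equal depth gave 24, with 7 S phase genes higher. Thinning also left out A6, C11, A11 and B3 and made the 2 measures of the 2-fold rule the same. The score without Ube2c gave 24 other G2/M genes higher and 5 S phase genes lower. Without set D, 23 other G2/M genes and 7 S phase genes were higher, and without set C 2 S phase genes were higher. With 5 counts in place of 1, the high cells had a median of 4862.5 genes at equal depth, by the construction of the threshold. The share of all genes called higher moved too, from 13.2% to 5.13% with a minimum of 50 CPM and to 19.96% with the equally weighted score. The cause of the other changes was not tested.

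Leaving out each cell in turn gave 1081 to 1310 higher genes, 1233 to 1420 lower genes, 10 to 17 other G2/M genes higher, 2 to 5 S phase genes higher and 6 to 12 lower. The lowest of the last 2 ranges came without C10 and without D6. No paired analysis was possible because the comparison is between cells of 1 treatment and comes from no test.

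Of 164 genes named by rule and reported, 28 changed sign in at least 1 of the recomputed log2 ratios.
The log2 ratio with cells thinned to equal depth was Nsl1 -1.06. The log2 ratios with the equally weighted score were Cdc25b -0.25, Nup88 -1.35, Spopl -4.45, Zfr -1.14, Mindy3 0.10, Ptbp3 0.71, Gpr141 0.011, Mad1l1 0.018, Cdc23 2.80, Nsl1 -1.80, Rb1 1.76, Atf3 0.86, Bag3 1.37, Pgd -0.11, Jun 2.57, Pfkl -0.62, Cyp51 1.68, Fanci -0.031, Krt7 0.79 and Lyz2 0.89. The log2 ratios with 18 cells a group were Bag3 0.15, Cyp51 0.27 and Ifit2 0.59. The log2 ratios with 9 cells a group were Cdc23 1.21 and Btg2 -0.60. The log2 ratios with the score without Ube2c were Cdc23 1.04, Atf3 0.31, Bag3 0.54 and Ifit2 1.08. The log2 ratios with the score from thinned counts were Nsl1 -1.20 and Ifit2 0.42. The log2 ratio without set B was Col1a2 1.06. The log2 ratios without set C were Nsl1 -2.15, Spag5 -0.15, Tigar -1.20, Glb1 0.55 and Postn -1.09. Leaving out each cell in turn gave log2 ratios of -0.75 (without C11) to 4.69 for Nsl1, -1.21 (without C9) to 5.33 for Postn and -4.33 to 1.11 (without A11) for Ckap5. The log2 ratios without the 3 cells with under 4000 genes were Nsl1 -0.99 and Ckap5 1.13.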

Other observations

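For the lists not described so far, the shares over all genes to set beside the counts are 13.2% higher and 15% lower. Cdca2, Ncapd2, Btg2 and Atf3 were also counted in lists described above. Of 14 measured genes of chromosome condensation, Cdca2 and Cdca5 were higher (14.3%) and Ncapd2, a condensin subunit, was lower, with A11 holding 83.0% of its low mean. Of 14 histone and HMG genes, Hmgn5 and Hmga2 were higher (14.3%) and H2bc4 lower. Hmgb2, a chromatin protein of proliferating cells, had medians of 554 and 235 CPM but a log2 ratio of 0.12 by summed counts, against 0.69 by means over cells. Pcna, the sliding clamp of replication, had medians of 207 and 101 CPM, with 0.58 by means over cells and -0.26 by summed counts. Of 13 glycolysis genes, Pfkp and Pfkl were higher (15.4%) and none lower. Of 13 immediate early genes, Btg2 was higher, and Jun, Dusp1 and Atf3 were lower (23.1%), Jun with a count in 1 low cell only. Of 22 actin and contractile genes, Lmna and Cnn3 were higher and none lower. Of 23 genes of the NRF2 response and xenobiotic metabolism, Pgd alone was higher, and of 11 cytosolic heat shock genes, Bag3 alone was lower. Of 10 interferon genes, Isg15 was higher and Ifit2 lower. Atf3, Bag3, Btg2, Ifit2, Jun, Pfkl and Pgd changed direction under at least 1 other choice of cells.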
